A study of Mus musculus with 16 samples.

Results

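The resident macrophage genes are Lyve1, Cd163, Folr2, Timd4, Mrc1, F13a1, Cbr2, Gas6 and Igf1, 9 of the 36950 genes counted in single cells of the mouse left ventricle. They were chosen by name, under a rule that uses no measured value. All 9 had at least 1 unique molecular identifier (UMI, a tag that counts each captured RNA molecule once) in the 1413 cells annotated as macrophages (MP), among 11492 cells. The study used a pressure-overload model, transverse aortic constriction (TAC), which narrows the aorta, and sampled 16 male mice. Disease stage 0w had 2 mice, stage 2w had 2, stage 5w had 7, stage 8w had 3 and stage 11w had 2. The labels used here give neither strain nor age. They name no operation for the 0w mice, so 0w stands for the earliest stage and not for a sham or untreated control. The other annotated types are fibroblasts (FB), endothelial cells (EC), cardiomyocytes (CM), T cells (T) and a type called GN, which the labels do not spell out.

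Tissue macrophages of the heart descend in part from embryonic precursors that renew themselves locally and in part from blood monocytes that arrive through the receptor CCR2. The long-lived population is recognised by surface receptors for scavenging and for dying cells, and it is known for clearing debris of cardiomyocytes, for contact with vessels and for secreted growth factors. After pressure overload, monocyte-derived macrophages are known to join it.

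The members fall into 3 roles. The surface receptors are Lyve1, a hyaluronan receptor that lymphatic endothelium shares (GRCm38, chr7:110850607-110863239, minus strand), and Cd163, the scavenger receptor for haptoglobin-haemoglobin complexes (chr6:124304656-124330527, plus strand). Folr2, folate receptor beta (chr7:101839988-101857194, minus strand), Timd4, a receptor for phosphatidylserine on dying cells (chr11:46810800-46844332, plus strand), and Mrc1, the mannose receptor CD206 (chr2:14229392-14332057, plus strand), belong to the same role. The enzymes are F13a1, the transglutaminase subunit of coagulation factor XIII (chr13:36867178-37050244, minus strand), and Cbr2, a carbonyl reductase (chr11:120729489-120732114, minus strand). The secreted ligands are Gas6, which bridges phosphatidylserine to the receptors Axl and Mertk (chr8:13465374-13494490, minus strand), and Igf1, insulin-like growth factor 1 (chr10:87858265-87937042, plus strand). All 9 are protein-coding. Annotated genes on the opposite strand overlap Folr2, F13a1, Gas6 and Igf1, and the counting's use of strand was not given, so reads of these pairs cannot be told apart. The largest such partner count was that of Tmem255b, which overlaps Gas6, with 212 UMIs in MP cells against 9925 for Gas6.

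Promoter windows of 250 bases before the start were available from RefSeq on GRCm38.p6 for 8 of the 9 members, in 10 windows. Those of Folr2 and Cbr2 are shown because their levels followed each other most closely, that of Timd4 because it held matches of both motifs, as the Folr2 window did, and that of Cd163 because its levels set the 0w mice apart. Capitals mark the ETS core GGAAGT or its complement ACTTCC, and the MAF-type motif TGCTGA or its complement TCAGCA. Both are motifs of transcription factor families active in macrophages, and both strands were searched. The Folr2 window lies at chr7:101857191-101857440 (minus strand), the Cbr2 window at chr11:120732022-120732271 (minus strand), the Timd4 window at chr11:46810549-46810798 (plus strand) and the Cd163 window at chr6:124304401-124304650 (plus strand).
Folr2: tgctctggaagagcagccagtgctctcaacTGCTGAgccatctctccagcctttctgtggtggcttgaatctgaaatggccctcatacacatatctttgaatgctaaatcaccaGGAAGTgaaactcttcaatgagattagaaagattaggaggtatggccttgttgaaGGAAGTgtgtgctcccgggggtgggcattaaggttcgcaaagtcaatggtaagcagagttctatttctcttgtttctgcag
Cbr2: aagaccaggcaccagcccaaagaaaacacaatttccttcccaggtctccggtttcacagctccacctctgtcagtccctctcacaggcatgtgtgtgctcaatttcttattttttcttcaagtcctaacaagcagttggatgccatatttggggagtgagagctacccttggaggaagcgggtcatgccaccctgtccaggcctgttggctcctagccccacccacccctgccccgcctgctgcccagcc
Timd4: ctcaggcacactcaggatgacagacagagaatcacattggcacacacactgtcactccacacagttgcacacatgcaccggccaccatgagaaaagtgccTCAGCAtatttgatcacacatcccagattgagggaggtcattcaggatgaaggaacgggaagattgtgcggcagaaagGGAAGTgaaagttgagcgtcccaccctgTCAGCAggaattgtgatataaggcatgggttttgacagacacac
Cd163: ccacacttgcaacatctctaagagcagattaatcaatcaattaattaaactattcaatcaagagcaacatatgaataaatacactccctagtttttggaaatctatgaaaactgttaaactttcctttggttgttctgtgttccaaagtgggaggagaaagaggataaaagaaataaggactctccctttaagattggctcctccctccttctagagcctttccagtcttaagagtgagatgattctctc
The ETS core was in 4 of the 10 member windows and in 19.7% of 32851 promoters of the same length. The MAF-type motif was in 3 of 10 and in 16.1%. The longer PU.1 core GAGGAAGT, which contains the ETS core, was in 0 of 10 member windows and in 2.44% of all promoters. These matches describe letters only.

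The MP cells carried macrophage RNA, but part of them also carried cardiomyocyte RNA. The sum of 10 macrophage markers, such as Csf1r, Cd68 and C1qa, reached 15356 CPM (UMIs scaled to a common total of non-mitochondrial UMIs) in pooled MP cells, with all 10 detected, against 3546 CPM in GN, 875 CPM in EC, 717 CPM in T, 420 CPM in FB and 375 CPM in CM. The sum of 7 cardiomyocyte markers, such as Myh6 and Tnnt2, was 10592 CPM in MP and 47106 CPM in CM. Plates, which the cell names give, differed in this. Of the MP cells, 955 came from plates with at most 40% CM and 458 from plates with more. The 0w and 2w mice each had a plate of either kind. On their plates with fewer CM, MP sums held between 1724 and 6731 CPM of cardiomyocyte markers and between 14621 and 20746 CPM of macrophage markers. On their plates with more CM, cardiomyocyte markers in MP sums came to between 34229 and 60273 CPM, near the level in CM, and macrophage markers to between 3996 and 5335 CPM. Not every plate with more than 40% CM was like this. On plate K, with 43.1% CM, MP sums of the 11w mice held 6662 and 6211 CPM of cardiomyocyte markers. Their macrophage markers there came to 9319 and 9281 CPM. MP cells numbered between 11 and 253 per mouse, with 148382 to 19260783 non-mitochondrial UMIs, and 0 cell names occurred in more than 1 mouse. Levels by stage are therefore given for all plates and then for the plates with at most 40% CM.

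Across cell types, 7 of the 9 members were highest in MP in each of the 16 mice, set against every other type with at least 10 cells in that mouse. Gas6 and Igf1 were the exceptions, with MP highest in 9 and 11 of 16 mice. The types were annotated from expression of the same cells, so these levels are described without a test. Per-mouse levels are mean CPM ± SD over mice, with 16 mice for MP, 14 for CM, 13 for EC, 12 for FB, 11 for T and 6 for GN.

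**Figure D1:**
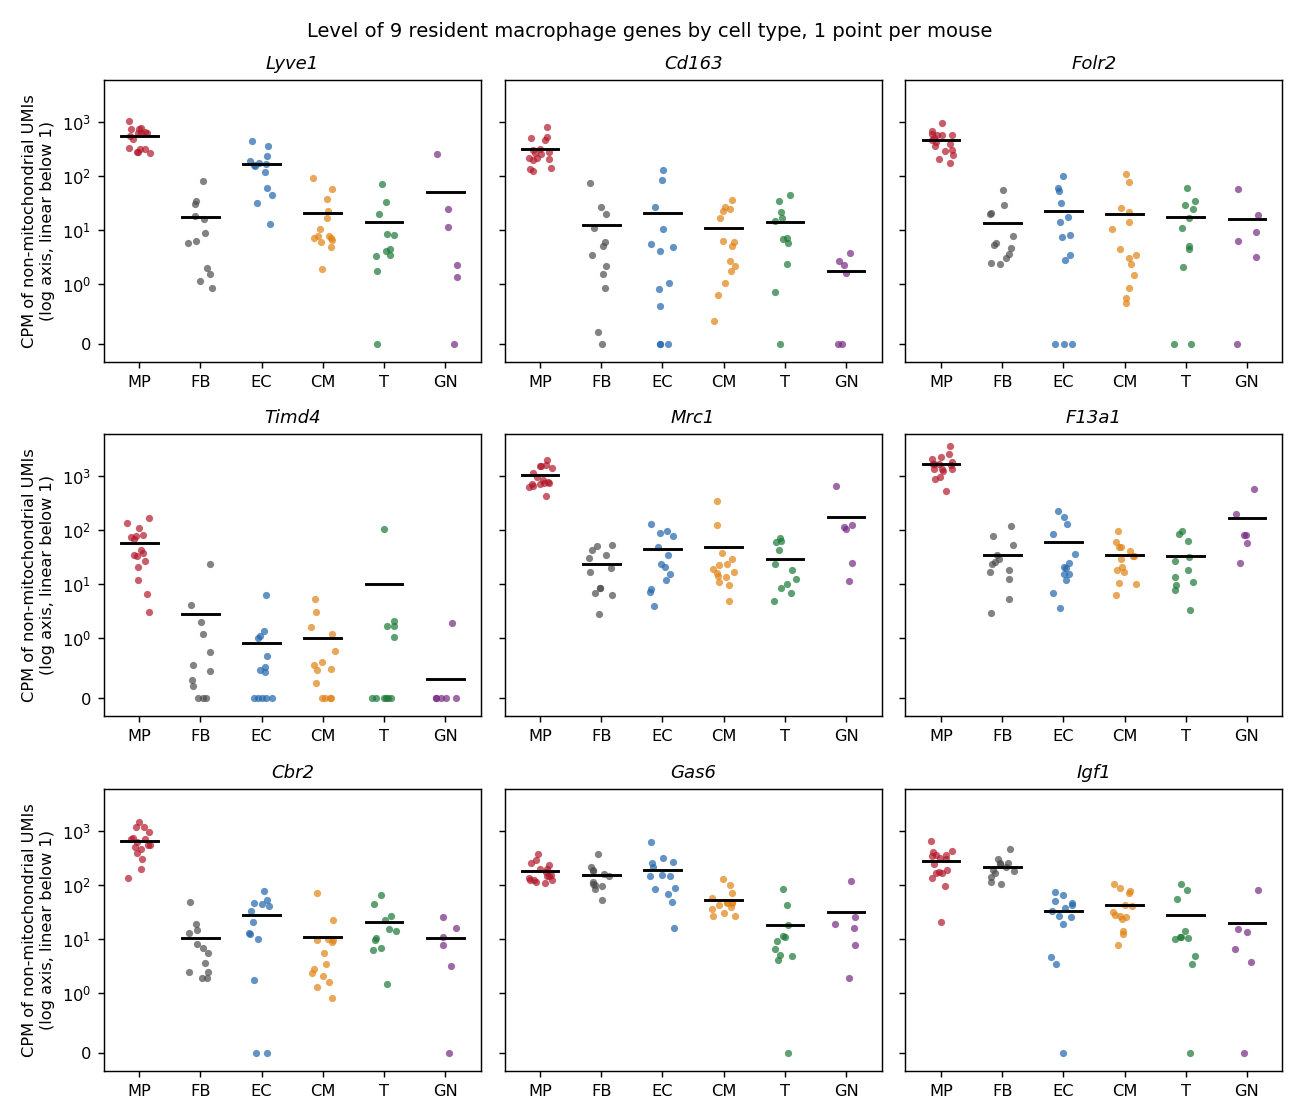
Level of each resident macrophage gene by annotated cell type, in CPM of non-mitochondrial UMIs, with 1 point per mouse and type of at least 10 cells. Over all mice the MP values of Folr2 and Cbr2 lie above those of every other type, while those of the other 7 genes overlap at least 1 type, and Gas6 in EC and FB and Igf1 in FB reach MP levels.

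Among the receptors, Lyve1 averaged 535 ± 228 CPM in MP and 164 ± 125 CPM in EC, the next highest type, a ratio of 3.26. The MP values began at 264 CPM and overlapped the EC values, which reached 447 CPM. Cd163 averaged 307 ± 178 CPM in MP and 20.5 ± 40.1 CPM in EC. Folr2 averaged 455 ± 203 CPM in MP and 22.6 ± 30.1 CPM in EC, a ratio of 20.1, with the lowest MP mouse at 172 CPM and the highest EC mouse at 98.3 CPM. The Folr2 ranges of MP and EC therefore did not overlap. Timd4 was at 59.0 ± 48.3 CPM in MP and 10.1 ± 31.3 CPM in T, where 1 mouse at 104 CPM made up most of the mean and the median was 0 CPM. Mrc1 averaged 1035 ± 452 CPM in MP and 174 ± 245 CPM in GN.

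Both enzymes had their highest mean in MP, and only for Cbr2 did no mouse of another type reach the MP values. F13a1 averaged 1666 ± 732 CPM in MP and 171 ± 210 CPM in GN, a ratio of 9.72. The lowest MP mouse, at 538 CPM, lay just below the highest GN mouse, at 584 CPM. Cbr2 had the widest gap of the members, with 659 ± 367 CPM in MP and 27.1 ± 24.2 CPM in EC, a ratio of 24.3, and with 90.4% of all its UMIs in MP cells.

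Both secreted ligands were shared with other types. Gas6 averaged 180 ± 75.4 CPM in MP, 185 ± 158 CPM in EC and 149 ± 84.6 CPM in FB, and MP was above EC in 7 of the 13 mice with both. MP cells held 29.3% of Gas6 UMIs. Igf1 averaged 271 ± 153 CPM in MP and 218 ± 98.0 CPM in FB, with MP above FB in 8 of 12 mice and 45.5% of its UMIs in MP. The MP range of Igf1, from 20.2 to 640 CPM, covered that of FB, from 104 to 465 CPM.

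Set against the macrophage markers found in the same cells, F13a1 and Mrc1 had similar proportions in MP and in FB, EC, CM and T. Lyve1 was higher in EC than in MP, and Gas6 and Igf1 were higher in FB, EC and CM than in MP. F13a1 UMIs came to 9.18% of macrophage marker UMIs in MP, against 9.67% in CM, 7.60% in EC, 8.53% in FB and 6.71% in T. Mrc1 came to 5.19% in MP, against 6.66% in CM, 7.24% in EC, 7.59% in FB and 5.76% in T. Folr2 came to 4.25% in MP and to between 3.37% (EC) and 6.19% (CM) in these 4 types, and Cbr2 to 5.62% in MP and between 2.69% (CM) and 4.60% (EC). In GN, the type with the most macrophage marker RNA outside MP, Mrc1 was at 5.79%, but F13a1 at 3.25%, Cbr2 at 1.28% and Folr2 at 0.478% were lower than in MP. Lyve1 was 3.92% in MP and 18.4% in EC. Gas6 was 1.098% in MP, 17.8% in EC, 30.7% in FB, 12.5% in CM and 1.90% in T. Igf1 was 1.95% in MP, 48.6% in FB, 10.5% in CM, 4.30% in EC and 3.73% in T.

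Subclusters outside MP located part of the signal. Lyve1 reached 2371 CPM (95% exact Poisson interval 2303 to 2440 CPM) in EC8, a subcluster of 66 cells from 12 mice whose 6 lymphatic markers, such as Prox1 and Ccl21a, summed to 22229 CPM. That Lyve1 level was above every MP subcluster. A second subcluster, EC3, held Cd163 at 751 CPM and Lyve1 at 503 CPM. EC3 had 44 cells, 43 of them at 0w and 32 from 0w replicate 2, with 3274 CPM of macrophage, 5007 CPM of fibroblast and 2982 CPM of endothelial markers, so its cells carried markers of 3 types. Folr2 reached 279 CPM in CM5, where erythroid markers summed to 86464 CPM and 1 cell gave 37.0% of the Folr2 UMIs. Igf1 reached 716 CPM in FB10, of which 1 cell gave 77.4%, and 346 CPM in the 313 cells of FB3. Gas6 was highest in EC9, at 319 CPM over 267 cells, and in FB9, at 303 CPM over 48 cells. These pooled intervals cover counting error only.

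Within MP, the 9 subclusters spanned at least a 2.89-fold range in every member. MP1 was lowest for 7 of the 9 members, and MP9 was lowest for Lyve1 and Igf1. MP5 held the highest pooled level of Folr2, Timd4, F13a1 and Cbr2, MP3 that of Lyve1, Cd163 and Igf1, MP6 that of Mrc1 and MP7 that of Gas6. Subclusters were formed from these cells' expression, so no test was made.

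**Figure D2:**
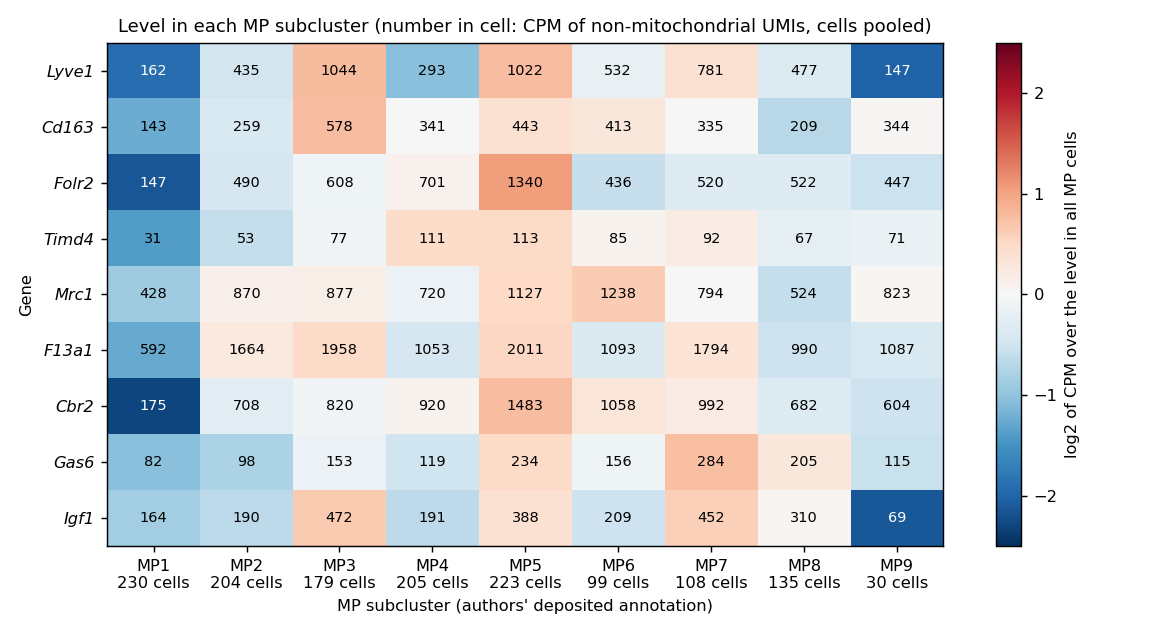
Pooled level of each resident macrophage gene in the 9 MP subclusters, in CPM of non-mitochondrial UMIs. MP1 has the lowest level of 7 genes and MP5 the highest of 4.

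Folr2 spanned the widest range, 9.09-fold, at 1340 CPM in MP5 and 147 CPM in MP1. Cbr2 followed at 1483 CPM in MP5 and 175 CPM in MP1. Mrc1 had the narrowest range, 2.89-fold, at 1238 CPM in MP6 and 428 CPM in MP1. Lyve1 was at 1044 CPM in MP3 and 1022 CPM in MP5, but at 293 CPM in MP4, where Folr2 was at 701 CPM and Cbr2 at 920 CPM, so the members did not share 1 order. MP4 and MP6 had the highest sums of 7 MHC class II genes, which present antigen, at 18768 and 18604 CPM, against 2466 CPM in MP1. Igf1 ranged up to 472 CPM in MP3, with 452 CPM in MP7, and down to 68.6 CPM in MP9. MP9 had 30 cells, and 1 cell gave 74.4% of its Lyve1 UMIs.

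Plates and other cell types' markers moved with these subclusters. MP1 had 230 cells, 56.5% of them from plate C, and its cardiomyocyte markers summed to 50237 CPM, against 4341 CPM for macrophage markers. MP8 had 10540 CPM of fibroblast markers and MP7 had 3977 CPM of endothelial markers. A single plate gave 57.8% of MP5 (plate E), 60.6% of MP6 (plate F) and 54.2% of MP3 (plate B), so these subclusters and plates coincided in part. Subclusters also differed within 1 mouse on 1 plate. In 5w replicate 1, all of plate E, Folr2 was at 1401 CPM in MP5 (113 cells), 601 CPM in MP8 (60 cells) and 450 CPM in MP3 (18 cells). F13a1 there was at 1901 CPM in MP5 and 159 CPM in MP6 (14 cells), and Igf1 at 560 CPM in MP7 (15 cells) and 2.57 CPM, from 1 UMI, in MP6.

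Per cell, with each cell thinned to 2000 non-mitochondrial UMIs, F13a1 was found in 53.9% of 1388 MP cells (95% exact binomial interval 51.2 to 56.5%). Mrc1 was found in 43.3%, Cbr2 in 38.3%, Folr2 in 33.0%, Lyve1 in 27.7%, Cd163 in 22.0%, Igf1 in 18.7%, Gas6 in 16.1% and Timd4 in 6.05%. T cells, which should lack these genes, gave between 0.335% (Timd4) and 6.20% (F13a1), with a median of 22286 UMIs per cell before thinning in MP and 14766 in T. Every member was above that background in MP. In other types, the shares above it beyond their intervals included Lyve1 in 8.96% of EC (7.69 to 10.4%, against 1.67 to 4.52% in T) and Gas6 in 13.7% of EC and 14.3% of FB (T 2.35%). Igf1 was found in 15.3% of FB (T 2.68%).

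MP cells differed in how many members they held. A thinned MP cell held a mean of 2.59 members, 17.1% of MP cells held 0, and 19.8% held 5 or more. Means in other types were 0.532 in EC, 0.456 in FB, 0.331 in GN, 0.275 in T and 0.201 in CM. MP5 cells averaged 3.98 members and MP1 cells 1.95. By stage, 0w cells averaged 2.58 members, 2w cells 2.23, 5w cells 3.12, 8w cells 2.76 and 11w cells 2.15, and single mice lay between 1.72 (11w replicate 2) and 3.55 (5w replicate 5).

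**Figure D3:**
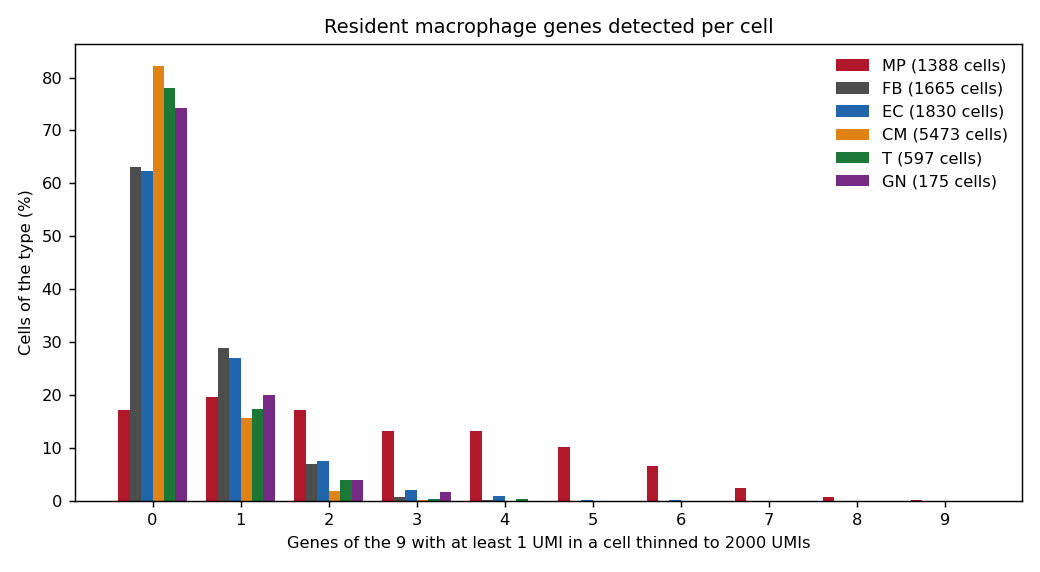
Share of cells, in percent, by the number of resident macrophage genes with at least 1 UMI after thinning to 2000 non-mitochondrial UMIs, for MP and other types. MP cells extend to 9 genes, with 17.1% at 0, while 82.2% of CM are at 0.

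Other genes differed along this count. Ccr2, the receptor of recruited monocytes, was found in 15.6% of the 237 MP cells with 0 members, 6.07% of those with 1 to 2, 2.47% with 3 to 4 and 0.727% of the 275 cells with 5 or more. H2-Aa, an MHC class II chain, was found in 61.2%, 52.3%, 37.5% and 30.2% of the same groups. Pf4, a chemokine of resident macrophages, went the other way, at 29.96%, 51.1%, 76.7% and 89.5%. C1qa, of the complement system, was found in 35.0% of cells with 0 members and 66.9% of those with 5 or more, and Lyz2, of the macrophage marker list, in 77.6% and 98.9%. The groups also differed in depth before thinning, with a median of 16401 UMIs at 0 members and 38277 at 5 or more, and Myh6 was found in 48.9% and 37.1%. The part of these in the pattern was not tested.

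By pairs, 55.2% of the 384 Lyve1 cells also had Folr2 and 38.3% had Cd163, against 33.0% and 22.0% of all MP cells. Timd4 was found in 84 cells, of which 81.0% had F13a1 and 57.1% had Lyve1, and 42 cells had Folr2. Of Gas6 cells 26.01% had Igf1, and of Igf1 cells 22.4% had Gas6, against 18.7% and 16.1% of all MP cells. Over 41 sums per mouse and MP subcluster, Folr2 and Cbr2 had the highest correlation of the member pairs (Pearson r = 0.656), and Timd4 and Igf1 the lowest (r = 0.120). These sums share mice, plates and depth. Among 2836 other genes, those most like the summed members over the same 41 sums were Sepp1 (r = 0.805), Lyz2 (0.785), Pf4 (0.783), Ccl6 (0.743), Ctsb (0.702), Trf (0.702), Gm14303 (0.701), Alox5ap (0.695), Csf1r (0.681) and Ctsc (0.674).

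Across disease stages, no member changed past the threshold in MP sums. UMIs were summed over the MP cells of each mouse and fitted with edgeR's quasi-likelihood test, with Benjamini-Hochberg adjustment over 13752 genes and a threshold of 0.05. In each of the contrasts of 2w, 5w, 8w and 11w with 0w, and of 8w and 11w with 5w, 0 of 9 members were called, where 0% of all genes tested were called. Across stages 0 of 9 members were called and 0.393% of all genes (54). At an unadjusted p under 0.05, Cd163 was the only member, at 2w and at 5w, and DESeq2 called 0 members too. Here and below, the share of all genes at an unadjusted p under 0.05 is not given, so members named at that threshold are not read as results. Here levels are CPM on TMM-scaled totals of all UMIs, which are lower than the non-mitochondrial CPM above. In bulk sums of a type, fewer cells expressing a gene and less RNA per cell cannot be told apart. Each stage lay on its own plates, except that plate E held 5w replicate 1 and 8w replicate 1. A difference between 0w and a later stage therefore cannot be told apart from one between plates.

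**Figure D4:**
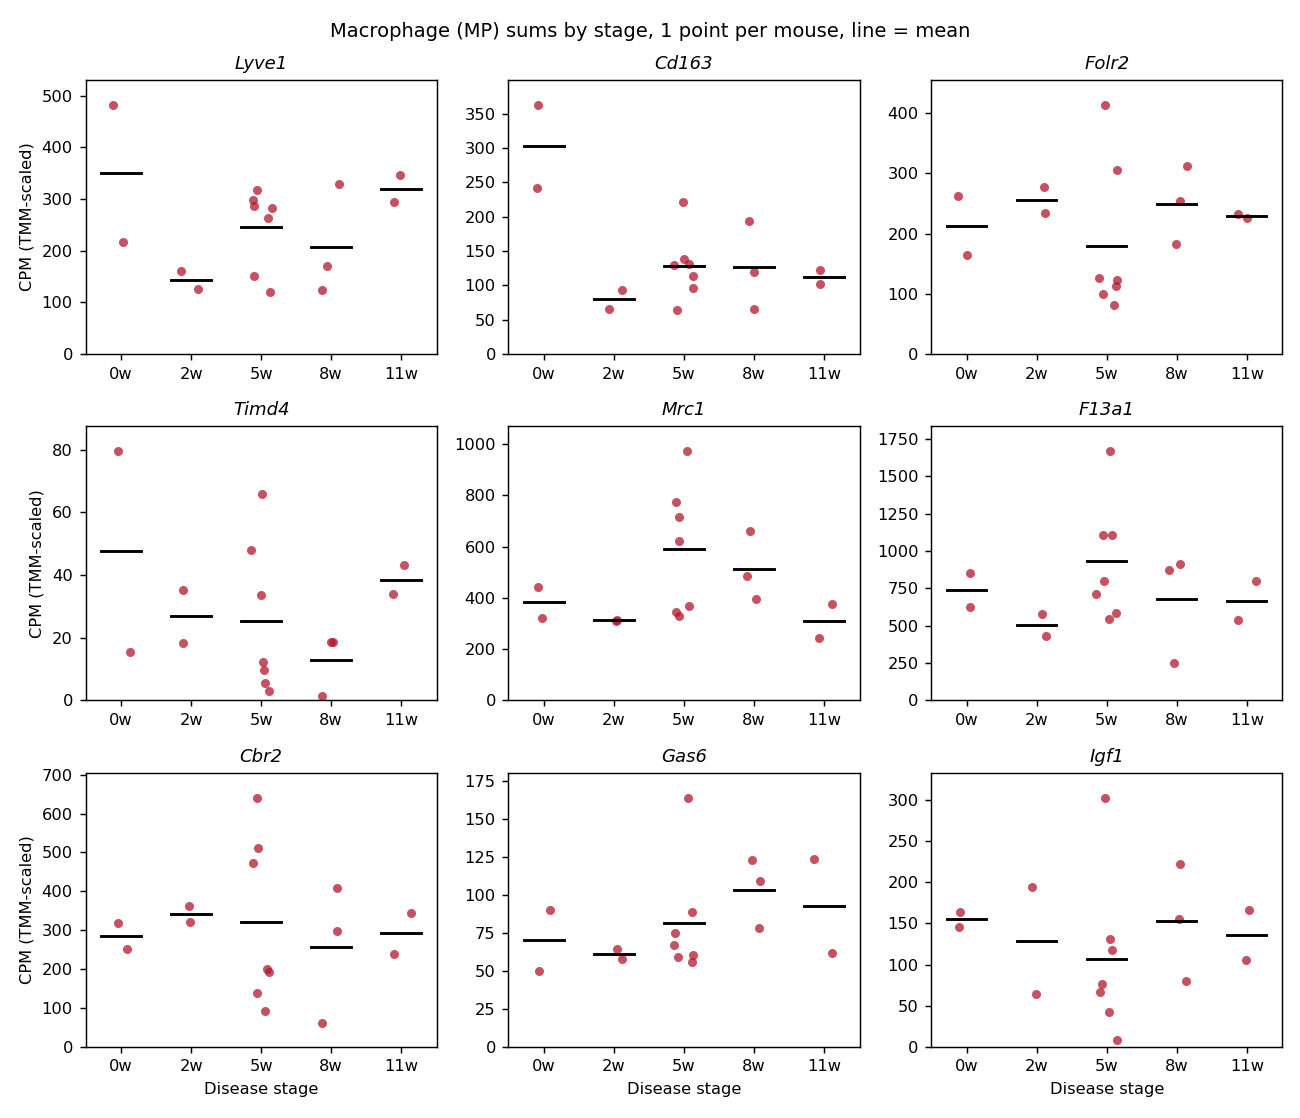
Level of each resident macrophage gene in the MP sum of each mouse by disease stage, in CPM on TMM-scaled totals, with 1 point per mouse. For Cd163 both 0w mice, at 363 and 242 CPM, lie above the 14 later mice, while for each of the other 8 genes later mice reach or pass a 0w value.

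Cd163 was at 363 and 242 CPM at 0w, 65.4 and 93.5 CPM at 2w, between 64.7 and 221 CPM at 5w (median 130, 7 mice), 194, 65.8 and 119 CPM at 8w, and 102 and 122 CPM at 11w. Both 0w mice were thus above all 14 later mice, which was so for 1.08% of 8432 genes with a mean of at least 10 non-mitochondrial CPM, and for no other member, while 0% of genes had both 0w mice below. The log2 fold change against 0w was -1.93 ± 0.77 (SE) at 2w (edgeR adjusted p = 1), -1.24 ± 0.56 at 5w (adjusted p = 0.821), -1.26 ± 0.67 at 8w (adjusted p = 0.879) and -1.43 ± 0.76 at 11w (adjusted p = 0.950). The median over all genes lay between -0.16 and 0.01 in these contrasts.

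Cd163 was then read by kind of plate and by subcluster, as a description, since it was picked because its values over all plates already set 0w apart. On plates with at most 40% CM, the 9 later values of Cd163 lay between 78.3 and 492 non-mitochondrial CPM, all below the 0w values of 710 and 896 CPM, which was so for 3.44% of 8521 genes. On plates with more CM, 10 later values lay between 32.9 and 324 CPM, against 258 and 408 CPM at 0w, and 7 of the 10 were below both, as at least 7 were for 27.5% of 7701 genes. A fit of the plates with at most 40% CM alone, added after seeing the data, had 11 mice and tested 14130 genes, of which 0% were called in the contrasts with 0w, 0.00708% in that of 8w and 11w with 5w and 0.0566% across stages. It called 0 of 9 members, and Cd163 gave -1.64 ± 0.65 at 2w (edgeR adjusted p = 0.530) and -2.35 ± 0.67 at 11w (adjusted p = 0.638). The 11w mice lay on plate L alone in this fit, and replicate 2 gave 17 Cd163 UMIs from 33 MP cells there. Within subclusters, with at least 10 cells per mouse, later mice with Cd163 below both 0w mice were 2 of 2 in MP1, 5 of 7 in MP2, 3 of 4 in MP3 and 3 of 3 in MP7. At least as many were below for 17.6% of 7832 genes in MP1, 20.9% of 7061 in MP2, 33.7% of 7568 in MP3 and 10.1% of 7829 in MP7, so these subcluster counts are common among genes. Lyve1 in MP1 (2 of 2) and Mrc1 in MP7 (3 of 3) did the same.

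Of the other receptors, Lyve1 was at 483 and 217 CPM at 0w, 161 and 127 CPM at 2w, between 120 and 317 CPM at 5w (median 283), 329, 171 and 124 CPM at 8w, and 294 and 346 CPM at 11w. The 2w mice were below both 0w mice, but other stages overlapped them (2w against 0w, log2 -1.28 ± 0.70, edgeR adjusted p = 1). Folr2 was at 262 and 164 CPM at 0w, 277 and 234 CPM at 2w, between 81.4 and 414 CPM at 5w (median 122), 255, 311 and 183 CPM at 8w, and 226 and 232 CPM at 11w. Mrc1 was at 444 and 322 CPM at 0w, 315 and 310 CPM at 2w, between 328 and 973 CPM at 5w (median 623), 484, 395 and 661 CPM at 8w, and 375 and 243 CPM at 11w. At 5w the Mrc1 values reached above 0w (log2 0.62 ± 0.53, edgeR adjusted p = 0.999), without passing the test, and on the plates with at most 40% CM alone the difference was -0.12 ± 0.44 (adjusted p = 0.958). Timd4 was at 79.6 and 15.5 CPM at 0w, 18.3 and 35.3 CPM at 2w, between 2.93 and 65.7 CPM at 5w (median 12.3), 18.7, 18.8 and 1.44 CPM at 8w, and 33.8 and 43.1 CPM at 11w. The spread between mice of 1 stage was as wide as that between stages for Timd4.

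The enzymes and ligands also overlapped between stages. F13a1 was at 856 and 627 CPM at 0w, 432 and 579 CPM at 2w, between 546 and 1670 CPM at 5w (median 797), 876, 911 and 251 CPM at 8w, and 800 and 537 CPM at 11w. Cbr2 was at 318 and 252 CPM at 0w, 362 and 321 CPM at 2w, between 91.0 and 641 CPM at 5w (median 199), 409, 297 and 61.8 CPM at 8w, and 238 and 345 CPM at 11w. For both, the 5w mice alone spanned the values of the 0w mice. Gas6 was at 49.98 and 90.1 CPM at 0w, 64.6 and 57.6 CPM at 2w, between 55.8 and 164 CPM at 5w (median 67.3), 123, 78.4 and 109 CPM at 8w, and 123 and 61.8 CPM at 11w. Igf1 was at 146 and 163 CPM at 0w, 64.2 and 194 CPM at 2w, between 8.79 and 303 CPM at 5w (median 76.7), 155, 222 and 80.5 CPM at 8w, and 167 and 105 CPM at 11w. The fold changes of these 4 genes against 0w lay between -0.55 (F13a1 at 2w) and 0.56 (Gas6 at 8w), each within 1 standard error of 0 over all plates.

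The members were also read on the plates with at most 40% CM alone, with 2 mice each at 0w, 2w, 8w and 11w and 3 at 5w. Of 36 fold changes of members against 0w, 9 had the opposite sign to that over all plates, and no member was called. Of these 9, all but that of Mrc1 at 5w were within 1 standard error of 0 over all plates. The share of sign turns over all genes is not given. Levels here are CPM on the TMM-scaled totals of that fit. F13a1 was at 1606 and 1395 CPM at 0w, 986 and 1424 CPM at 2w, 968, 855 and 1081 CPM at 5w, 1513 and 1824 CPM at 8w, and 827 and 449 CPM at 11w. The 5w and 11w mice were below both 0w mice, with log2 fold changes of -0.63 ± 0.37 at 5w and -1.23 ± 0.42 at 11w (edgeR unadjusted p = 0.00764, adjusted p = 0.638), against 0.33 and -0.15 over all plates. All 11w values here came from plate L, where MP cells had a median of 6854.5 non-mitochondrial UMIs. In the comparison of 2 plates per mouse given below, F13a1 was at 535 and 311 CPM on plate L. The same 11w mice had 1759 and 569 CPM on plate K, so the lower 11w level was not seen on both of their plates. Beside Cd163 and F13a1, the only member at an unadjusted p under 0.05 in a contrast was Cbr2, for 8w and 11w with 5w (-0.68 ± 0.32, edgeR adjusted p = 0.585).

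Cbr2 was at 644 and 622 CPM at 0w, 882 and 902 CPM at 2w, 844, 740 and 971 CPM at 5w, 707 and 622 CPM at 8w, and 432 and 417 CPM at 11w. On these plates its 2w and 5w mice were thus above both 0w mice and its 11w mice below both. Folr2 was at 533 and 383 CPM at 0w, 653 and 666 CPM at 2w, between 192 and 684 CPM at 5w, 440 and 647 CPM at 8w, and 397 and 330 CPM at 11w. Only its 2w mice lay apart from both 0w mice. Mrc1 was at 823 and 658 CPM at 0w and at 549 and 266 CPM at 11w, where both were below 0w (-0.86 ± 0.49, edgeR adjusted p = 0.669). Lyve1 was at 957 and 441 CPM at 0w and between 316 and 568.2 CPM in the 9 later mice. Timd4 was at 156 and 18.0 CPM at 0w, which enclosed all 9 later mice, from 18.6 to 106 CPM. Igf1 was at 265 and 419 CPM at 0w and at 217, 105 and 64.4 CPM at 5w (-1.40 ± 0.70, edgeR adjusted p = 0.663). Gas6 was at 101 and 223 CPM at 0w and between 54.5 and 255 CPM later, so its stages overlapped. The share of all genes that lie apart from 0w at a single stage on these plates is not given. The separations of Cbr2, F13a1, Folr2, Mrc1 and Igf1 at single stages are therefore not read as particular to the members.

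Within 5w, some members split by plate. Replicates 1 to 3 lay on plates with 14.0% and 0% CM and replicates 4 to 7 on plates with 93.6% and 93.8% CM. The MP sums of replicates 1 to 3 held 429 to 1718 CPM of cardiomyocyte markers, and those of replicates 4 to 7 held 28032 to 47372 CPM. Cbr2 was at 511, 472 and 641 CPM in replicates 1 to 3 and at 192, 199, 139 and 91.0 CPM in replicates 4 to 7, with no overlap. F13a1 split the other way, at 586, 546 and 714 CPM in replicates 1 to 3 and at 1111, 1108, 797 and 1670 CPM in replicates 4 to 7, also with no overlap. Mrc1 was at 328, 623 and 344 CPM in replicates 1 to 3 and at 973, 369, 773 and 716 CPM in replicates 4 to 7, where 3 of the 4 lay above every value of replicates 1 to 3, so the 2 sets overlapped. Each of these replicates lay on 1 plate only, so mouse and plate cannot be told apart. The share of all genes that split in this way is not given, so these splits are not read as particular to the members.

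In 7 mice the MP cells came from 2 plates that differed in their share of CM, and the same mouse could be compared with itself. This comparison was added after seeing the data. Of 8674 genes, 2.28% were higher and 5.23% lower on the plate with fewer CM (edgeR quasi-likelihood test with mouse as a block), and 2 of the 9 members, Cbr2 and Folr2, were higher. Among these 7 mice, those of the same stage shared the same 2 plates. The 7 mice are therefore not independent measures of a difference between plates. The test had no term for shared plates, so its p-values, here and below, may be too small.

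**Figure D5:**
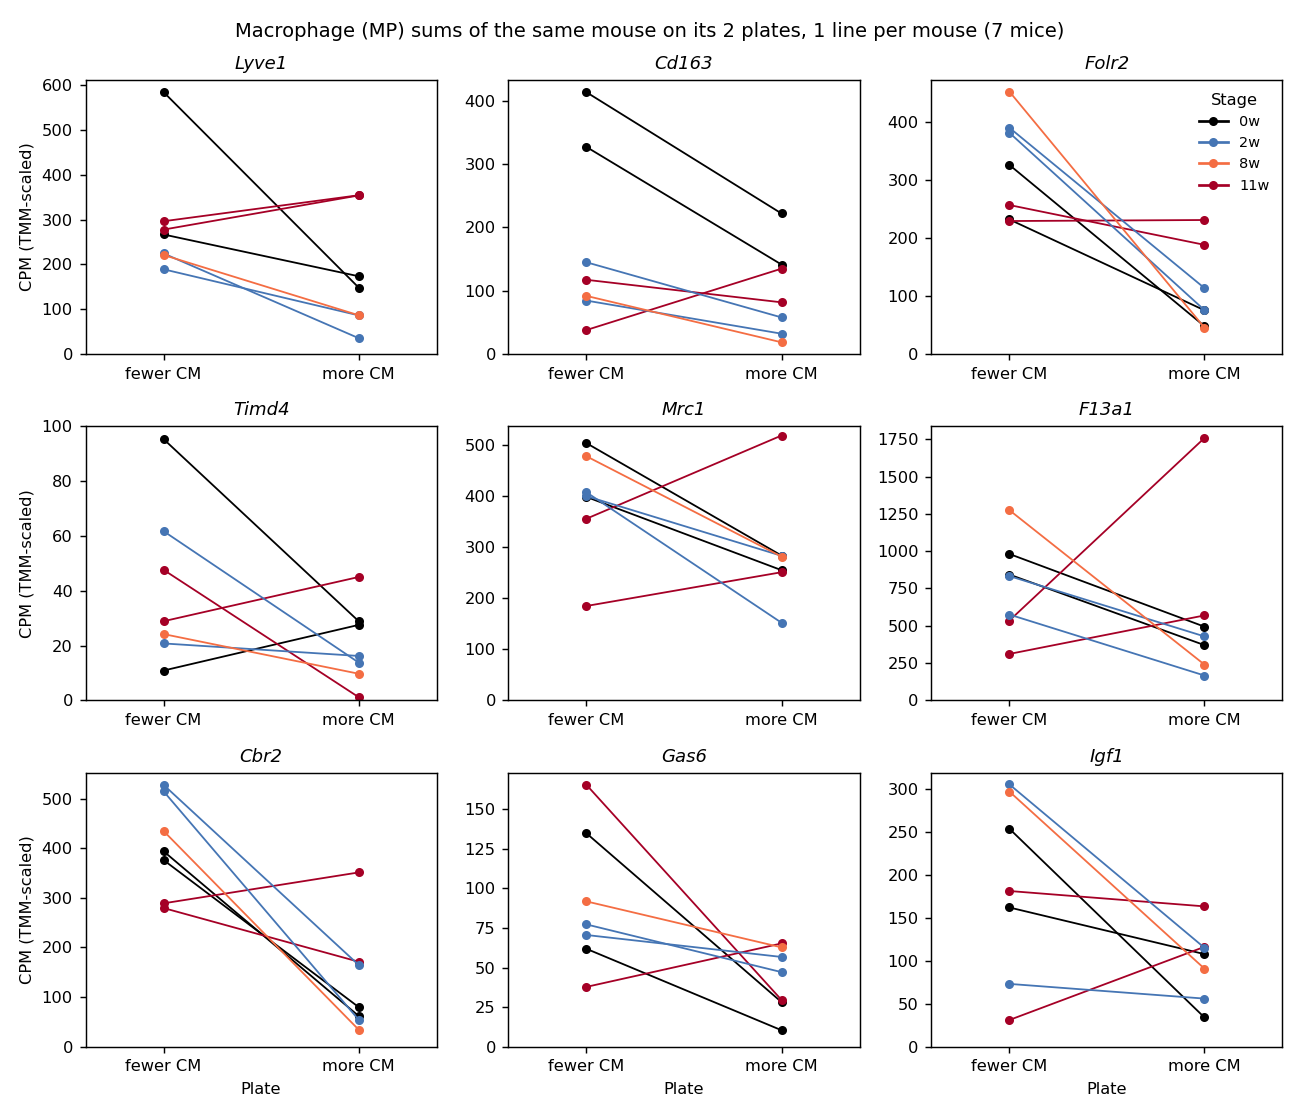
Level of each resident macrophage gene in MP sums of the same mouse on its plate with fewer CM and its plate with more CM, in CPM on TMM-scaled totals, with 1 line per mouse (7 mice). Folr2 and Cbr2 are higher on the plate with fewer CM in 6 of 7 mice.

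Cbr2 averaged 402 ± 98.4 CPM on the plates with fewer CM and 131 ± 111 CPM on those with more (SD, n = 7 mice), a log2 difference of 2.01 ± 0.45 (edgeR adjusted p = 0.00752), and was higher in 6 of 7 mice. Folr2 averaged 324 ± 87.6 CPM on the plates with fewer CM and 111 ± 72.0 CPM on those with more, a log2 difference of 1.76 ± 0.41 (edgeR adjusted p = 0.0107), also higher in 6 of 7. In 11w replicate 2 the Folr2 values were 229 CPM on the plate with fewer CM and 231 CPM on the other. Without 2w replicate 1 the Folr2 difference was 1.58 (edgeR adjusted p = 0.0571) and without 2w replicate 2 it was 1.67 (adjusted p = 0.0511), and neither passed the threshold. The remaining 7 members were not called, with log2 differences between 0.46 ± 0.32 (Mrc1) and 1.16 ± 0.50 (Gas6). Cd163 had 0.90 ± 0.43 (edgeR adjusted p = 0.263), and 1.27 (adjusted p = 0.0300) without 11w replicate 2.

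The macrophage markers moved in the same direction between these plates, with 5 of 10 higher on the plate with fewer CM, and 7 of 7 cardiomyocyte markers were lower there. The median log2 difference was 1.02 for the members, 1.27 for the macrophage markers and 0.06 for all genes. As a share of macrophage marker UMIs, Mrc1 was 4.28 ± 1.12% on the plates with fewer CM and 9.74 ± 3.73% on those with more, lower in 7 of 7 mice. F13a1, at 8.38% and 16.2%, and Cd163, at 2.03% and 3.54%, were lower on the plates with fewer CM in 7 of 7 mice as well. Cbr2, at 4.43% and 3.74%, and Folr2, at 3.51% and 3.20%, were higher there in 5 and 4 of 7 mice.

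Other genes of resident and recruited macrophages, and of pathways the members act in, were read in the same MP fit. Among 30 tested of 31 further resident macrophage genes, 19 genes of recruited monocytes, 7 MHC class II genes, 10 tested of 13 genes of apoptotic cell uptake, 18 tested of 22 ligands, receptors and binding partners of the members and 15 immediate early genes, 0 were called in either direction in any stage contrast. At an unadjusted p across stages under 0.05 there were 4, 4, 0, 0, 3 and 0 genes of these lists. Without the share of all genes at that threshold, these counts do not show whether a list exceeds the background. Ccl8, a chemokine of resident macrophages, was at 197 and 214 CPM at 0w, 1395 and 367 CPM at 2w, and 650 and 1303 CPM at 11w (edgeR adjusted p across stages = 0.249). Cd209a, a lectin of monocyte-derived cells, was at 0 CPM in all 7 mice at 5w and at 39.8 and 3.13 CPM at 0w (adjusted p across stages = 0.0643). Igfbp7, which binds insulin-like growth factors, was at 31.7 and 61.9 CPM at 0w, 102, 244 and 142 CPM at 8w, and 178 and 155 CPM at 11w (adjusted p across stages = 0.123). The other genes named by the rule (Cd209f, Cd209g, Chi3l3, Vcan, Igfbp3, Slc40a1, Ciita, H2-DMa, H2-Eb1, Hspa1a, Hspa1b, Ier3, Itgav, Itgb5 and Pros1) had an adjusted p across stages of at least 0.341.

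Markers of the other types in MP sums varied between mice at each stage. Over the 16 mice, 10 macrophage markers summed to between 8694 and 21213 CPM, 7 cardiomyocyte markers to between 429 and 47372 CPM, 5 erythroid markers to between 93.2 and 145948 CPM, and 7 fibroblast markers to between 41.7 and 3071 CPM. The 7 endothelial markers came to between 129 and 2020 CPM and the 6 lymphatic markers to between 8.23 and 468 CPM. Markers of T cells, granulocytes, dendritic cells and B cells stayed at or below 326 CPM in every mouse, and mural markers at or below 664 CPM. No marker gene of any list was called in any stage contrast of MP. The part of these cells' RNA in the member levels was not tested.

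In the other types, 0 members were called by stage either. The fits called 0% of 15427 genes in FB in each contrast and 0.162% across stages, 0% of 14532 in EC in the contrasts other than 5w with 0w (0.00688%) and 0.826% across stages, and 0% of 15893 in CM in the contrasts with 0w, 0.0189% for 8w and 11w with 5w and 0.0818% across stages. Timd4 was not tested in EC. Cd163 in EC was at most 11.8 CPM in the 11 later mice and at 34.5 and 55.3 CPM at 0w, so both 0w mice were above all later ones (edgeR adjusted p across stages = 0.0912). Such a split with 0w above was found for 4% of 8608 genes in EC, 3.17% of 8698 in FB and 2.03% of 7594 in CM, and with 0w below for 0.267% in EC, 2.15% in FB and 0.474% in CM, with Cd163 in EC the only member among them. As given above, EC3 cells, nearly all at 0w, held Cd163 and macrophage markers. Macrophage markers in EC sums came to 94.4 to 1278 CPM in later mice and to 1500 and 1624 CPM in the 0w mice. Igf1 in CM had a log2 fold change against 0w of 2.14 ± 0.81 at 2w (edgeR adjusted p = 1) and 2.15 ± 0.74 at 5w (adjusted p = 0.556). At an unadjusted p under 0.05 the members were Cd163 in FB, EC and CM, Folr2 and F13a1 in EC, and Igf1 in CM.

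A test of whether stage effects differed between MP and FB used 12 mice with both and 17586 genes, with 0% called, and called 0 members. For Folr2 the difference against 0w, MP minus FB, was 0.32 ± 0.99 for 2w, 2.55 ± 0.92 for 5w, 2.67 ± 0.88 for 8w, and 2.60 ± 0.96 for 11w on the log2 scale (edgeR adjusted p = 1 each). These differences lay mostly in low FB values, with means of 16.2 CPM at 0w and 5.23, 2.92 and 2.94 CPM at 5w, 8w and 11w. In the MP fit the Folr2 fold changes at these 3 stages were -0.23, 0.23 and 0.11. For Igf1 it was below 0 at all 4 stages, at -1.68 ± 0.81, -1.54 ± 0.74, -0.99 ± 0.73 and -1.14 ± 0.79 (edgeR adjusted p = 1 each). Stage fits within a subcluster were limited to those with at least 3 residual degrees of freedom. MP2 met this, while MP1, MP3 and MP4, with 4 mice and 2 degrees each, were not fitted. The MP2 fit had 8 mice and called 0.141% of 4966 genes across stages. It called 0 of 9 members, and F13a1 had the smallest p among them (edgeR adjusted p = 0.314).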

How the data were processed

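Cells of the left ventricle of 16 mice were profiled by single-cell sequencing of polyadenylated RNA. Per the labels' protocols, tissue was digested in a way that enriched either myocytes or other cells. The authors deposited whole-number UMI counts per gene and cell, not normalized, and a cell annotation with mouse, type and subcluster, used here as given. The submitters' processing notes name Subread 1.4.6-p1, STAR 2.5.2b and featureCounts, beside the builds GRCh37 and mm10, without their roles. The use of strand is not given either. Whether cells were freed of doublets is not stated, and none were called.

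Counts were summed per mouse and type or subcluster, with at least 10 cells. Sums were tested with edgeR 4.0.16 (TMM, filterByExpr, robust glmQLFit, two-sided glmQLFTest, R 4.3.3), all stages in 1 fit, with Benjamini-Hochberg adjustment over all genes tested and a threshold of 0.05. DESeq2 1.42.0, Python 3.11.15, numpy 2.4.6, scipy 1.17.1 and pandas 2.3.3 served for alternatives and descriptions. Levels by type and subcluster are CPM of non-mitochondrial UMIs. For shares of cells, each cell was thinned to 2000 such UMIs with a fixed seed, which left out 25 MP cells. Intervals are 95% exact ones and cover counting error only. The scripts were tested on simulated data. The mouse is the replicate, from the labels' individuals, and p-values measure the spread between mice. Plate was no covariate, since plates are nested in stages apart from plate E, and mice of the same stage often shared plates. The p-values for stage therefore do not separate stage from plate.

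The members, gene lists and tests were chosen with earlier results of these data known. Genes named besides the members were up to 3 per list with the smallest p across stages in MP, and the 10 most like the summed members. Lists cover markers of 11 cell types, other resident macrophage genes, recruited monocytes, MHC class II, apoptotic cell uptake, partners of the members and immediate early genes. Ccr2, H2-Aa, C1qa and Myh6 were named from the lists for the description of single cells. The alternatives were RLE factors, no mitochondrial genes, no filter, DESeq2, other cell minimums, thinned sums, plates left out and each mouse left out.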

Additional observations from a re-analysis of the deposited data

Results flagged for a closer look

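In groups of 4 to 10 mice, 13 of the 26 groups of member values tested had 1 mouse far from the others. Chance gives about 1 in 20 for independent groups, but groups of the same type share mice, so these are not independent. In the groups of the 5w stage, 11 of these were 5w replicate 1 in types other than MP. In CM its levels were 14.4 CPM for Cbr2, 5.16 CPM for Cd163, 15.7 CPM for Folr2, 18.6 CPM for Lyve1, 72.3 CPM for Mrc1 and 1.12 CPM for Timd4, above the other 5w mice. In EC its levels were 34.6 CPM for Cbr2, 11.8 CPM for Cd163, 38.4 CPM for F13a1, 43.5 CPM for Folr2 and 43.7 CPM for Mrc1, again above the others. MP cells made up 37.6% of this mouse's cells and 45.8% of its UMIs. Its macrophage markers summed to 3046 CPM in CM, against 70.5 to 114 CPM in the other 5w mice, and to 1278 CPM in EC, against 94.4 to 152 CPM. The part of this in the member levels was not tested. The CM sum of this mouse held 54 cells, from plate E, and those of the other 5w mice 340 to 602 cells, from plates G and H. Its EC sum held 116 cells, and those of the others 10 to 13 cells, also from other plates. Mouse and plate cannot be told apart here. In MP, Gas6 in 5w replicate 5 (164 CPM) and Igf1 in 5w replicate 6 (303 CPM) lay above the other 5w mice. These sums came from 11 and 12 cells.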

How the results depend on the processing

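Members called by stage were 0 in each of 444 settings tried over the 4 types, MP2 and the contrasts, and the fold change of Cd163 in MP against 0w was below 0 in all 27 settings of each contrast, with a lowest adjusted p of 0.462. Cd163 was picked because both 0w mice lay above all later mice, so its sign was nearly fixed in advance. The constant sign is therefore no further support, and the share of all genes with a constant sign is not given. The counts over all genes moved more. Across stages in MP, 54 genes were called by the main settings, 23 with RLE factors, 28 without mitochondrial genes, 115 with DESeq2, 35 with at least 30 cells per mouse, 12 with thinned cells, 19 without plate E, 94 without the cells with most markers of other types and 8 without plates over 40% CM. In the contrasts of MP, where 0 were called, DESeq2 called 1 at 2w, 4 at 5w, 3 at 8w and 123 for 8w and 11w against 5w. At 5w, 14 were called with at least 30 cells per mouse, 1 with thinned cells and 17 without the mice of plates G and H. For 8w and 11w against 5w these settings gave 2, 2 and 9, leaving out plate E gave 2 and leaving out plates over 40% CM gave 1. Replicate numbers did not pair mice across stages, since of 21 same-numbered pairs 1 correlated above 0.1 (median 0.00). The fit with the replicate number as a block called 53 genes at 5w, 1 at 11w and 42 for 8w and 11w against 5w. RLE factors moved the median of all genes at 5w to 0.27 and for 8w and 11w against 5w to -0.37. Among the 45 member contrasts, 12 turned sign without plates over 40% CM (9 of 36 against 0w), to values between -0.68 and 0.15. Among contrasts at least as large as their standard error, signs turned for F13a1 in 8w and 11w against 5w (-0.47), at 0.31 with at least 30 cells, 0.20 without the mice of plates G and H and 0.094 without plates over 40% CM, and for Mrc1 at 5w (0.62), at -0.12 without those plates. Of the ratios of levels, signs turned for the log2 ratio of Gas6 in MP to EC (-0.04), at 0.11 when cells were pooled, and for that of Igf1 in MP to FB (0.31), at -0.079 on all UMIs. The cause was not tested. Without thinning, shares of MP cells were 44.7% for Lyve1, 42.0% for Cd163, 52.2% for Folr2, 16.6% for Timd4, 67.5% for Mrc1, 73.8% for F13a1, 57.8% for Cbr2, 39.8% for Gas6 and 40.2% for Igf1. Leaving out 1 mouse in turn gave 18 to 259 genes across stages and 0 to 6 for 8w and 11w against 5w in MP, 23 to 804 across stages in EC, 0 to 26 in FB and 0 to 138 in CM, and between the plates of 1 mouse 393 to 750 genes and 1 to 3 members. With 2 mice at most stages and 11 or 12 MP cells in 3 of the 5w mice, small changes were not detectable. Large ones could be missed as well. Against 0w in MP, neither the log2 fold change of Cd163 at 2w (-1.93 ± 0.77) nor that of Timd4 at 8w (-1.83 ± 1.18) was called.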
